A study of Mus musculus with 10 samples.

Results

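The genes described here are 10 members of the transforming growth factor beta (TGF-beta) and Smad pathway: Tgfb1, Tgfbr1, Tgfbr2, Smad2, Smad3, Smad4, Smad7, Ski, Skil and Tgif1. They were taken by gene name from the 24033 genes used in each deposited table, and all 10 were present. The libraries hold RNA of microglia, the macrophages that live in brain tissue, isolated with magnetic beads against CD11b from adult C57BL/6 mice of 3 to 5 months. They compare 3 genotypes of Trem2, a lipid-sensing receptor of microglia: wild type (Trem2 +/+, libraries 1, 4, 7 and 10), heterozygous (Trem2 +/-, libraries 5, 8 and 11) and knockout (Trem2 -/-, libraries 6, 9 and 12). Libraries 1, 5, 6, 10 and 11 came from females and libraries 4, 7, 8, 9 and 12 from males, and no treatment was named for any group. Whether each library held 1 mouse or several is not stated, so every p-value here reflects library-to-library spread, which may be partly technical. Monocytes, neutrophils and border macrophages carry CD11b too, and the bead step does not remove them.

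TGF-beta is secreted in a latent complex that must be opened before the ligand can bind its receptors. The ligand first binds the type II receptor, which phosphorylates the type I receptor. The type I receptor in turn phosphorylates Smad2 and Smad3, which join Smad4 and enter the nucleus to act on target genes. Smad7 blocks the receptor, and the nuclear corepressors Ski, SnoN (the product of Skil) and Tgif1 hold Smad complexes back. Microglia need this signal to keep the expression program that sets them apart from other macrophages.

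Recovered reads per library ranged from 17.61 to 45.03 M (megareads). Libraries 9 to 12 were at 37.09 M or more and the other 6 at 22.5 M or fewer. The deeper ones were knockout libraries 9 and 12, heterozygous library 11 and wild-type library 10, so depth was uneven over the genotypes. Values are RPKM, reads scaled to gene length and to the library total, and levels are given as mean ± SD. Trem2 itself matched the labels, with wild-type libraries at 170.1 to 237.2 RPKM, heterozygous libraries at 85.21 to 104.8 and knockout libraries at 21.37 to 28.33. The 6 microglial markers counted summed to 4017 to 4899 RPKM in every library, and none was at 0. Of the markers of other cells, those of neutrophils (8 of 9 found, none at 0) summed to 2272 RPKM in knockout library 6. In knockout libraries 9 and 12 they summed to 365.8 and 375.3 RPKM. Heterozygous libraries were at 140.5 to 352.0 RPKM and wild-type libraries at 102.1 to 220.5, so all knockout libraries were above the others. The part of these cells in the genotype differences was not tested. The 6 monocyte markers summed to 61.43 RPKM in knockout library 6 and to 32.97 to 41.66 in the others. The 3 choroid plexus markers summed to 1043, 1715 and 1349 RPKM in heterozygous libraries 5, 8 and 11. Wild-type libraries were at 607.6 to 1037 RPKM and knockout libraries at 960.5 to 1042, so all heterozygous libraries were above the others, library 5 only slightly. The part of choroid plexus RNA in the genotype differences was not tested.

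All 10 members were measured in every library, with Tgfbr1 at the top and the signalling Smads at the bottom of their order by length-scaled level. Tgfbr1 had the highest mean RPKM over the 10 libraries, 457.4, above 99.6% of the 13621 genes tested. Skil followed at 218.7, Tgfbr2 at 135.8, Ski at 132.8, Tgfb1 at 72.28, Tgif1 at 54.99, Smad7 at 44.90, Smad3 at 35.15, Smad4 at 21.61 and Smad2 at 14.91 RPKM. The lowest of them, Smad2, was still above 72.1% of the genes tested. Neighbours in this order whose libraries overlapped were Tgfbr2 and Ski, Tgfb1 and Tgif1, Tgif1 and Smad7, and Smad7 and Smad3. Tgfbr1, Skil, the pair of Tgfbr2 and Ski, Smad4 and Smad2 were each separated from their neighbours in all 10 libraries.

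**Figure D1:**
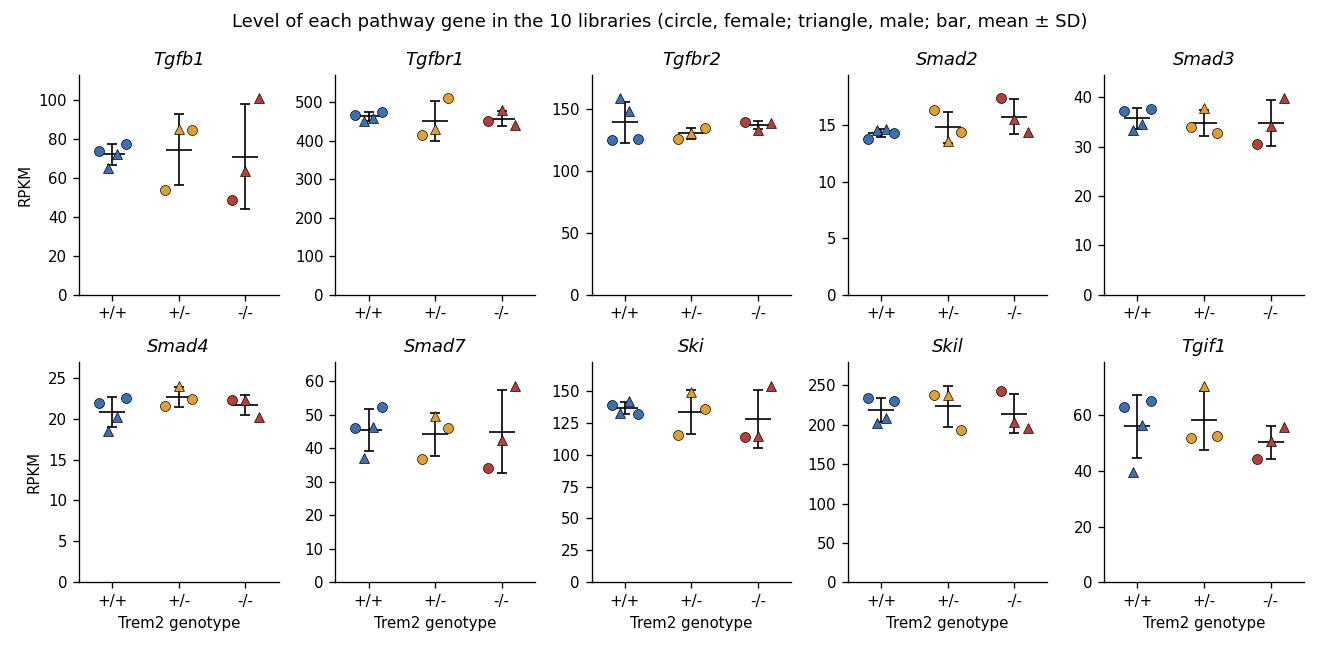
RPKM of the 10 pathway genes in each library by Trem2 genotype; circles are female and triangles male libraries, and bars give the mean ± SD. The genotypes overlapped for every gene, and Tgfb1 had the widest range as a ratio, 2.08 from 48.34 to 100.6 RPKM, both ends of which were knockout libraries.

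Tgfb1 encodes the ligand (ENSMUSG00000002603.15, chr7:25687002-25705077, plus strand, GRCm38). Its level was 73.80, 64.67, 72.05 and 77.28 RPKM in wild-type libraries 1, 4, 7 and 10. In heterozygous libraries 5, 8 and 11 it was 53.44, 84.93 and 84.49 RPKM. In knockout libraries 6, 9 and 12 it was 48.34, 63.13 and 100.6 RPKM. The wild-type libraries lay close together and inside the range of both other genotypes. The means were 71.95 ± 5.317 RPKM (SD, n = 4) for wild type, 74.28 ± 18.06 (SD, n = 3) for heterozygous and 70.71 ± 26.96 (SD, n = 3) for knockout. The log2 difference of knockout against wild type was -0.13 (SE 0.22, 95% interval -0.60 to 0.35, limma adjusted p = 0.999). It was 0.126 without knockout library 6 and -0.375 without knockout library 12, so its sign rested on library 6. Knockout library 6, the lowest, had the highest sum of neutrophil markers. It also had the lowest sum of 9 immediate-early genes, which respond to handling of cells (9512 RPKM, against 11190 to 15410 in the others). The part of these in the level of Tgfb1 was not tested. In a bulk sample, fewer cells of a type and less RNA per cell cannot be told apart.

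The receptors varied little between libraries, and Tgfbr1 had the lowest coefficient of variation of the 10 members. Tgfbr1 (ENSMUSG00000007613.15, chr4:47353222-47414931, plus strand), the type I receptor kinase, was at 466.9, 450.8, 457.7 and 475.1 RPKM in wild-type libraries 1, 4, 7 and 10. It was at 413.5, 430.1 and 509.6 RPKM in heterozygous libraries 5, 8 and 11, and at 450.5, 479.1 and 441.0 in knockout libraries 6, 9 and 12. Both its lowest and its highest value thus came from heterozygous libraries. Its coefficient of variation over the 10 libraries was 5.94%, against a median of 11.1% in 66 genes of similar level, of which 1.52% varied less. Tgfbr2 (ENSMUSG00000032440.13, chr9:116084293-116175360, minus strand), the type II receptor that binds the ligand, was at 124.9, 158.3, 147.7 and 125.7 RPKM in wild-type libraries 1, 4, 7 and 10. It was at 125.6, 130.0 and 134.5 RPKM in heterozygous libraries 5, 8 and 11 and at 139.4, 133.1 and 138.6 in knockout libraries 6, 9 and 12. The male wild-type libraries 4 and 7 were the highest, and the other 8 lay between 124.9 and 139.4 RPKM. Its coefficient of variation was 7.89%, and 26.1% of genes of similar level varied less. Knockout against wild type gave a log2 difference of -0.01 (SE 0.10) for Tgfbr1 and of -0.03 (SE 0.09) for Tgfbr2, both at a limma adjusted p = 0.999.

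Sequences upstream of the start of 4 members are shown because they cover the ligand, both receptors and a receptor-activated Smad, and include the members with the lowest (Tgfbr1) and the highest (Tgfb1) coefficient of variation. Each is the 250 bases before a RefSeq start on GRCm38.p6, the outermost where the table has several, 5′ to 3′ on the gene's strand, with GC boxes (GGGCGG or its reverse complement CCGCCC) in capitals. Of 32851 such windows in the RefSeq table, 32.7% held a GC box and 42.2% held CAGAC or its reverse complement GTCTG, letters of the Smad-binding element; the 2 motifs do not overlap in these 4 windows. The median window was 52.4% GC with 6 CpG.
Tgfb1 (chr7:25686752-25687001, plus strand): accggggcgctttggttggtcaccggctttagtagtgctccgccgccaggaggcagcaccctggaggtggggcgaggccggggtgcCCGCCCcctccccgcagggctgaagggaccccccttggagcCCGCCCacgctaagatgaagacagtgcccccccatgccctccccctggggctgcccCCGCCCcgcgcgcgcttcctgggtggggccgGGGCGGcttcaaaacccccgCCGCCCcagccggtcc
Smad3 (chr9:63757995-63758244, minus strand): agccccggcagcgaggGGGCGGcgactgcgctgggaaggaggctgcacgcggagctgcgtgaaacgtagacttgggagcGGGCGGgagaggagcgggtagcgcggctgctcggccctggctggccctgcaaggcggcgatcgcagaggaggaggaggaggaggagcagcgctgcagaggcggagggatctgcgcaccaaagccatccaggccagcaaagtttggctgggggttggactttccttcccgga
Tgfbr1 (chr4:47352972-47353221, plus strand): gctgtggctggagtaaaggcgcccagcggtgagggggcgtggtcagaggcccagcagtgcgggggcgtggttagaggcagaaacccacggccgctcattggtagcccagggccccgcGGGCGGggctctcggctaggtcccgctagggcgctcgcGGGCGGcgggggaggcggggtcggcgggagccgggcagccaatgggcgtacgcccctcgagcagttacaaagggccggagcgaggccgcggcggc
Tgfbr2 (chr9:116175364-116175613, minus strand): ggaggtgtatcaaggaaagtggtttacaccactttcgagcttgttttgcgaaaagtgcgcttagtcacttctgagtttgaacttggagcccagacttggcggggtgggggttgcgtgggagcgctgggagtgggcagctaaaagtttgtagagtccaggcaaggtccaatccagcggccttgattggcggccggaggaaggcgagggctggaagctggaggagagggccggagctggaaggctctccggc
The Tgfb1 window held 5 GC boxes, 21 CpG and 75.2% GC, more GC than 96.1% of all windows. Tgfbr1 had 2 GC boxes, 29 CpG and 74.8% GC, and Smad3 had 2 GC boxes, 22 CpG and 69.2% GC. Tgfbr2 had 0 GC boxes, 12 CpG and 58.4% GC, and of these 4 windows it was the one with the Smad-binding letters, at 1 place. A second Tgfbr1 window in the table, before a start inside the gene, differed from the one shown, with 0 GC boxes, 3 CpG, 52.8% GC and the Smad-binding letters at 1 place. The shown windows of Tgfbr1 and Tgfb1 were nearly equal in GC content.

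The Smads that carry the signal were the lowest of the 10 members and even between libraries. Smad2 (ENSMUSG00000024563.16, chr18:76241580-76310963, plus strand) is phosphorylated by the type I receptor. It was at 13.83, 14.56, 14.64 and 14.28 RPKM in wild-type libraries 1, 4, 7 and 10. In heterozygous libraries 5, 8 and 11 it was at 16.37, 13.63 and 14.43 RPKM, and in knockout libraries 6, 9 and 12 at 17.39, 15.58 and 14.37. Libraries 6 and 5, where Tgfb1 was lowest, were the highest for Smad2. Its log2 difference of knockout against wild type, 0.15 (SE 0.11, 95% interval -0.09 to 0.38, limma adjusted p = 0.991), was the largest positive one among the members.

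Smad3 (ENSMUSG00000032402.12, chr9:63646767-63757994, minus strand), the other receptor-activated Smad, was at 37.21, 33.31, 34.61 and 37.70 RPKM in wild-type libraries 1, 4, 7 and 10. It was at 33.86, 37.76 and 32.67 RPKM in heterozygous libraries 5, 8 and 11 and at 30.52, 34.09 and 39.76 in knockout libraries 6, 9 and 12. The knockout libraries again held both ends of the range, with library 6 lowest and library 12 highest. Smad4 (ENSMUSG00000024515.13, chr18:73639009-73703780, minus strand), the shared partner, was at 21.91, 18.47, 20.22 and 22.57 RPKM in wild-type libraries 1, 4, 7 and 10. It was at 21.55, 24.00 and 22.46 RPKM in heterozygous libraries 5, 8 and 11 and at 22.35, 22.33 and 20.22 in knockout libraries 6, 9 and 12. Coefficients of variation were 7.96% for Smad2, 8.09% for Smad3 and 7.28% for Smad4, below the medians of 10.5% to 12.5% in genes of similar level.

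Among the inhibitors, Smad7 and Tgif1 varied widely between libraries and the 2 Ski-family corepressors did not. Smad7 (ENSMUSG00000025880.11, chr18:75367529-75395935, plus strand), a receptor blocker that is itself induced by TGF-beta, was at 46.12, 37.11, 46.21 and 52.26 RPKM in wild-type libraries 1, 4, 7 and 10. It was at 36.87, 49.50 and 45.97 RPKM in heterozygous libraries 5, 8 and 11 and at 34.02, 42.33 and 58.58 in knockout libraries 6, 9 and 12. As for Tgfb1, library 6 was lowest and library 12 highest. Tgif1 (ENSMUSG00000047407.17, chr17:70844205-70853546, minus strand), a homeodomain corepressor, was at 62.82, 39.77, 56.57 and 64.99 RPKM in wild-type libraries 1, 4, 7 and 10. It was at 51.82, 70.54 and 52.50 RPKM in heterozygous libraries 5, 8 and 11 and at 44.31, 50.68 and 55.89 in knockout libraries 6, 9 and 12. Here wild-type library 4 was lowest and heterozygous library 8 highest. Coefficients of variation were 16.9% for Smad7 and 17.0% for Tgif1, and 85.4% and 86.6% of genes of similar level varied less.

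Ski (ENSMUSG00000029050.15, chr4:155154075-155222592, minus strand), a corepressor that binds the Smad complex, was at 138.6, 132.8, 141.8 and 132.2 RPKM in wild-type libraries 1, 4, 7 and 10. It was at 115.3, 148.9 and 136.1 RPKM in heterozygous libraries 5, 8 and 11 and at 114.2, 114.8 and 153.8 in knockout libraries 6, 9 and 12. Knockout libraries 6 and 9 lay below all wild-type libraries and knockout library 12 above them. The log2 difference of knockout against wild type was -0.13 (SE 0.12, 95% interval -0.39 to 0.12, limma adjusted p = 0.999). Skil (ENSMUSG00000027660.16, chr3:31095058-31122577, plus strand), which encodes the related SnoN, was at 233.4, 202.5, 208.7 and 230.0 RPKM in wild-type libraries 1, 4, 7 and 10. It was at 238.1, 238.4 and 193.2 RPKM in heterozygous libraries 5, 8 and 11 and at 242.4, 203.7 and 196.4 in knockout libraries 6, 9 and 12. Unlike Ski, Skil was highest in knockout library 6, and its coefficient of variation was 8.89%, against 10.7% for Ski.

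Loss of both Trem2 copies changed 0 of the 10 members by limma, in a fit across all genes with genotype and sex as terms. In knockout against wild type, 0 members were called at an adjusted p under 0.05, where 0.00734% of the 13621 genes were called (Trem2 alone), and 0 had an unadjusted p under 0.05, where 5.13% of all genes did. The log2 differences ran from -0.14 (Tgif1) to 0.15 (Smad2), 8 of 10 were negative, and their median was -0.04, beside 0.03 over all genes. The median size without sign was 0.065, beside 0.122 over all genes. These genes were not matched for level, and the SE of the members was 0.094 to 0.216, beside a median of 0.183 over all genes. The 95% intervals reached at most from 65.8% (Tgfb1) to 130% (Smad2) of the wild-type level. They were widest for Tgfb1 (log2 -0.604 to 0.347) and narrowest for Tgfbr2 (log2 -0.241 to 0.175). Exact permutation tests of single members gave p from 0.171 to 0.914. With 4 against 3 libraries these two-sided tests cannot go below 0.05. No member's knockout libraries stood clear of its wild-type libraries, which 4.59% of all genes did.

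Loss of 1 copy gave the same count. In heterozygous against wild type, 0 members and 0.0% of all genes were called by limma, and 0 members had an unadjusted p under 0.05, beside 2.75% of all genes. Trem2 itself, at 49.0% of wild type, was not called here (log2 -1.02, SE 0.14, limma adjusted p = 0.238), so a count of 0 does not show that a change of this size is absent. The differences ran from -0.07 (Tgfbr2) to 0.11 (Smad4), with a median of -0.003 beside 0.001 over all genes. Intervals reached from 74.8% to 145% of wild type, and exact permutation p-values from 0.286 to 1.0. No member's libraries were separated, where 4.53% of all genes were.

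Knockout against heterozygous called 0 members, beside 0.00734% of all genes, again Trem2, and 0 members had an unadjusted p under 0.05, beside 3.35% of all genes. The members' median was -0.03, beside 0.03 over all genes, and the lowest value was -0.21 (Tgif1, SE 0.20, limma adjusted p = 0.999). Intervals reached from 61.3% to 131% of the heterozygous level. With 3 against 3 libraries an exact permutation test cannot go below 0.1, and the members' p-values were 0.2 to 1.0. No member's libraries were separated, where 7.42% of all genes were. On the slope per lost Trem2 copy, 0 members were called, beside 0.00734% of all genes, and 0 had an unadjusted p under 0.05, beside 5.43%. Slopes ran from -0.06 (Ski) to 0.07 (Smad2) log2 units per copy. The 3 genotype comparisons share libraries and are not independent of each other.

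**Figure D2:**
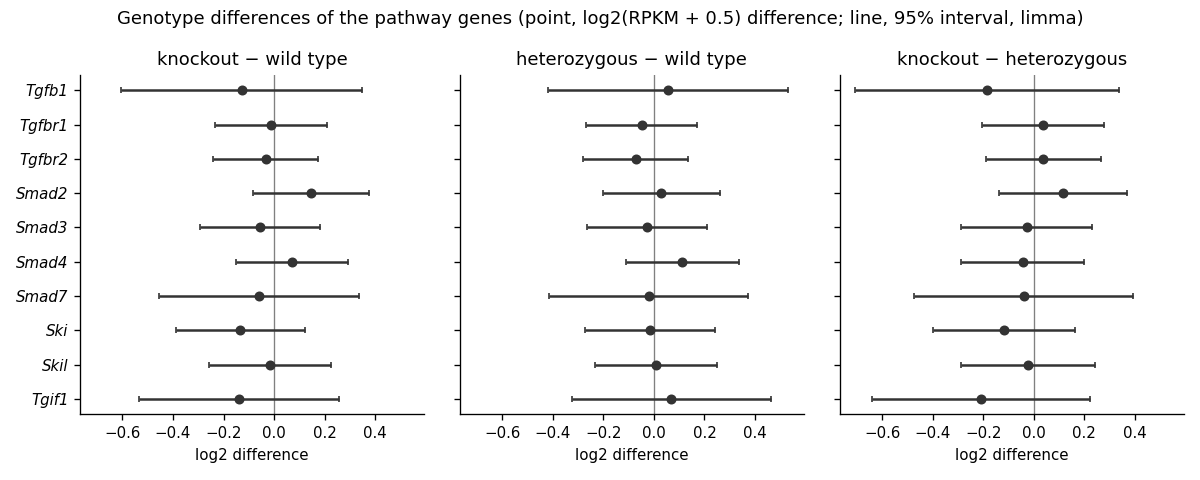
Differences in log2(RPKM + 0.5) between genotypes for the 10 pathway genes from limma (points), with 95% intervals (lines). All 30 intervals include 0, and the widest belong to Tgfb1, Smad7 and Tgif1.

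Sex was the second known difference between the libraries. In male against female, 0 members were called, beside 0.044% of all genes, and 0 had an unadjusted p under 0.05, beside 5.34%. The member with the largest difference was Tgfb1 (77.09 ± 15.74 RPKM in males and 67.47 ± 15.72 in females, SD, n = 5 each; log2 0.24, SE 0.18, limma adjusted p = 0.922). Skil was the lowest, at a log2 difference of -0.11 (SE 0.09, limma adjusted p = 0.931).

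The remaining pathway genes gave the same picture. Of 57 counted, 53 passed the filter on low values, and Ltbp2, Itgb6, Smad9 and Foxh1 did not. By limma 0 of the 53 were called in any genotype comparison or between the sexes, where 0.0% to 0.044% of all genes were. In knockout against wild type, 26 differences were positive and 27 negative, with a median of -0.005 beside 0.03 over all genes. The gene among these 53 at an unadjusted p under 0.05 between genotypes was Thbs1, in knockout against wild type, where 5.13% of all genes had one.

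Thbs1, whose product thrombospondin can open the latent complex, was at 13.06, 12.78, 14.65 and 16.31 RPKM in wild-type libraries 1, 4, 7 and 10 and at 15.67, 18.66 and 10.59 in heterozygous libraries 5, 8 and 11. In knockout libraries 6, 9 and 12 it was at 33.23, 15.54 and 16.74 RPKM, so that 1 library stood well above the rest. The log2 difference of knockout against wild type was 0.56 (SE 0.25, limma adjusted p = 0.971) and 0.11 without knockout library 6, the library whose neutrophil markers summed to 2272 RPKM. The part of other cells in this value was not tested.

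By role, the other ligands were far below Tgfb1: Tgfb2 was at 5.731 ± 1.446 RPKM (SD, n = 4) in wild type and 4.667 ± 0.1101 (SD, n = 3) in knockout, and Tgfb3 at 2.016 ± 0.5497 and 1.546 ± 0.4205. Of the 9 measured genes of latency and activation, the highest were Nrros and Itgav. Nrros, which tethers latent TGF-beta to the surface of microglia, averaged 54.57 ± 7.319 RPKM (SD, n = 4) in the wild-type libraries, 60.16 ± 5.539 (SD, n = 3) in the heterozygous and 66.96 ± 10.63 (SD, n = 3) in the knockout libraries (log2 0.28, SE 0.14, limma adjusted p = 0.977). These levels overlapped. Itgav, the integrin subunit of TGF-beta-activating integrins, was at 40.99, 40.92 and 40.95 RPKM in the same order, with a coefficient of variation of 3.69% over the 10 libraries.

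Among 9 other receptors of the superfamily, the highest were Bmpr2, the type II receptor for bone morphogenetic proteins, at 122.3 ± 28.51 RPKM (SD, n = 4) in wild type and 114.0 ± 12.10 (SD, n = 3) in knockout, and Acvr1, a type I receptor, at 30.59 ± 2.548 and 30.27 ± 2.181. The Smads of the bone morphogenetic protein branch, Smad1 and Smad5, were at 28.51 ± 2.829 and 12.99 ± 0.6901 RPKM in wild type and at 25.08 ± 3.609 and 13.84 ± 0.3840 in knockout. Of 13 signal regulators, 10 had positive and 3 negative differences, none with an unadjusted p under 0.05. Pmepa1, a target gene whose product sequesters receptor Smads, was at 111.8 ± 7.846 RPKM (SD, n = 4) in wild type and 113.1 ± 4.714 (SD, n = 3) in knockout. Smurf2, a ubiquitin ligase that works with Smad7, was at 47.49 ± 1.037 and 49.53 ± 4.953 RPKM.

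The nuclear partners Zeb2 and Ep300 and the kinase-branch genes Tab2 and Map3k7 differed by log2 values between -0.10 and 0.01 in knockout against wild type. Of 9 known targets counted, 4 had positive and 5 negative differences. The most abundant were Junb and Id2. Id2, an inhibitor of basic helix-loop-helix factors, averaged 150.8 ± 34.22, 148.8 ± 48.59 and 129.5 ± 43.73 RPKM in wild-type, heterozygous and knockout libraries (SD, n = 4, 3 and 3). Junb, an AP-1 subunit, averaged 133.9 ± 24.17, 173.3 ± 15.43 and 141.3 ± 39.64 RPKM in the same order. Junb is also an immediate-early gene, and the sums of other immediate-early genes ran from 9512 to 15410 RPKM between libraries. The part of cell handling in its level was not tested.

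Genes of microglial identity that are known to depend on TGF-beta did not pass the test either: 13 of 13 counted were measured, and by limma 0 were called or had an unadjusted p under 0.05 in any genotype comparison. Over all genes 5.13%, 2.75% and 3.35% had one in the 3 comparisons. Their median log2 difference was 0.07 in knockout against wild type and -0.06 in heterozygous against wild type, beside 0.03 and 0.001 over all genes. P2ry12, the purinergic receptor that marks resting microglia, averaged 1966 ± 272.2 RPKM (SD, n = 4) in the wild-type libraries, 1862 ± 254.8 (SD, n = 3) in heterozygous and 2073 ± 255.4 (SD, n = 3) in knockout. Sparc, a secreted matrix-binding protein, averaged 1693 ± 115.2, 1703 ± 178.4 and 1653 ± 108.7 RPKM in the same order. In knockout against heterozygous 10 of 13 differences were positive, with a median of 0.06 beside 0.03 over all genes.

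**Figure D3:**
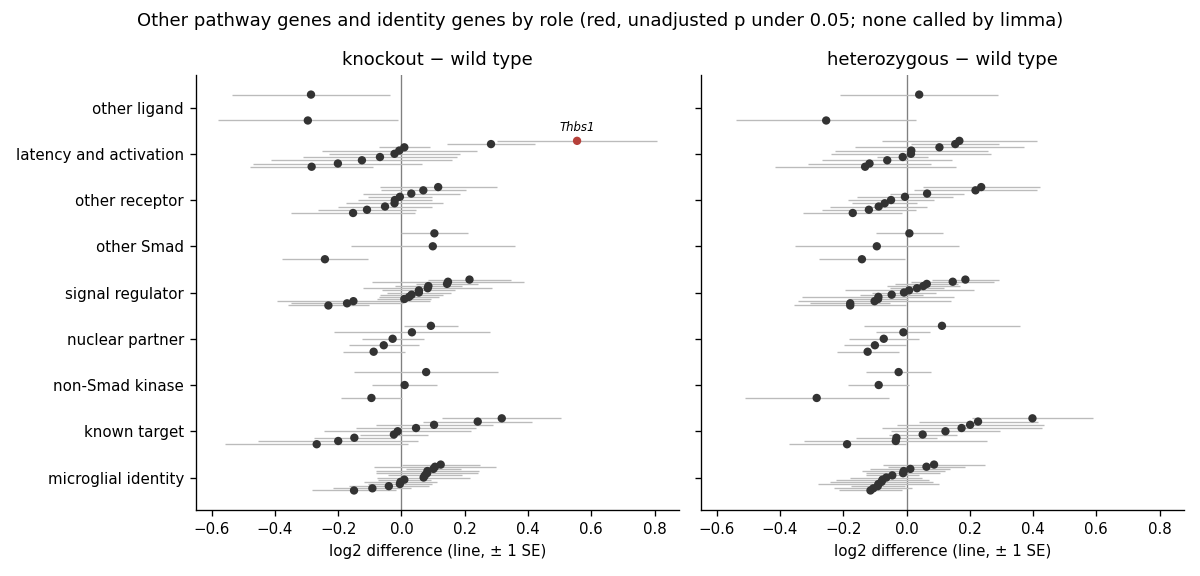
Differences in log2(RPKM + 0.5) against wild type for the other measured pathway genes and the identity genes, grouped by role; lines are ± 1 SE, and red points have an unadjusted p under 0.05. Thbs1 (0.56) in the knockout is the only red point, and it did not pass limma's adjusted threshold.

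No member's libraries were separated by genotype, and some members' levels varied together across libraries. Of the 45 pairs of members, 5 were correlated over the 10 libraries at an adjusted permutation p under 0.05 by Pearson's r, and 4 of these by Spearman's rho as well. The closest pair was Tgfb1 and Smad7, ligand and feedback inhibitor (r = 0.930, permutation p = 0.00015, adjusted p = 0.00675; rho = 0.879, permutation p = 0.00189, adjusted p = 0.0425). Library 12 was highest and library 6 lowest for both genes. Without these 2 libraries, the farthest from the median of Tgfb1, r was 0.835, and it was 0.897 to 0.954 with any 1 library left out. Within the 6 libraries under 25 M reads r was 0.942; the other 4, and the 5 libraries of each sex, are too few for a value. After genotype and sex were removed r was 0.941. Of all genes tested, 0.213% were at least as closely related to Tgfb1, in either direction, as Smad7 was.

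The other pairs that passed were Tgfb1 with Ski (r = 0.895, permutation p = 0.00062, adjusted p = 0.0139; rho = 0.842, adjusted permutation p = 0.0443), Smad3 with Smad7 (r = 0.872, adjusted permutation p = 0.0164; rho = 0.891, adjusted permutation p = 0.0425), Tgfb1 with Smad2 (r = -0.847, adjusted permutation p = 0.0164; rho = -0.842, adjusted permutation p = 0.0443) and Smad2 with Ski (r = -0.851, adjusted permutation p = 0.0164; rho = -0.709, adjusted permutation p = 0.103). Of all genes tested, 0.756% were at least as closely related to Tgfb1 as Ski was, 0.749% to Smad3 as Smad7 was, 2.17% to Tgfb1 as Smad2 was and 0.977% to Smad2 as Ski was. The remaining 40 pairs did not pass, among them Tgfb1 with Smad3 (r = 0.768, adjusted permutation p = 0.0516) and Smad7 with Ski (r = 0.792, adjusted permutation p = 0.0516). Without the 2 libraries farthest from the median of the first gene, r was 0.817 for Tgfb1 with Ski, 0.699 for Smad3 with Smad7, -0.871 for Tgfb1 with Smad2 and -0.747 for Smad2 with Ski. No pair with a receptor passed. The closest of these was Tgfbr2 with Smad4 (r = -0.775, adjusted permutation p = 0.0516; rho = -0.455, adjusted permutation p = 0.452). Its r was -0.248 without wild-type libraries 4 and 7, the farthest from the median of Tgfbr2. The r of Tgfb1 was 0.249 with Tgfbr1 and -0.071 with Tgfbr2. The number of pairs that passed depended on single libraries: 0 without knockout library 6, 3 without heterozygous library 5, and 8 without wild-type library 4 or without knockout library 12.

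The base composition of the libraries went with the levels of some members and not of others. The GC slope of a library, the change in log2 level per 10 points of transcript GC content over all genes against the mean of all libraries, was lowest in wild-type library 4 (-0.149) and knockout library 6 (-0.126). It was highest in knockout library 12 (0.138), heterozygous library 8 (0.076) and wild-type library 1 (0.067), and lay between -0.029 and 0.037 in the other 5. Transcripts of Smad7 (56.9% GC), Ski (55.6%), Smad3 (53.1%) and Tgfb1 (52.5%) were richer in GC than the median gene (49.5%), and those of Smad2 (44.9%) and Tgif1 (45%) were poorer. These 2 differed in direction: Tgif1 was lowest in libraries 4 and 6, where the slope was lowest, whereas Smad2 was highest in library 6 and lowest in library 8. The r of level with GC slope was 0.889 for Smad7, 0.841 for Smad3, 0.816 for Tgif1, 0.81 for Tgfb1 and 0.66 for Ski. It was 0.369 for Smad4, 0.021 for Tgfbr1, -0.08 for Skil, -0.568 for Tgfbr2 and -0.62 for Smad2. After each library's GC trend was removed, 1 of the 45 pairs passed, Tgfb1 with Smad7 (r = 0.910, adjusted permutation p = 0.0184). The other 4 had the same sign but smaller r: 0.676 for Tgfb1 with Ski (adjusted permutation p = 0.196), 0.737 for Smad3 with Smad7, -0.720 for Tgfb1 with Smad2 and -0.569 for Smad2 with Ski. Some pairs with Tgfbr1 became closer, and none of these passed: r was 0.667 for Tgfb1 with Tgfbr1 (adjusted permutation p = 0.196), -0.706 for Tgfbr1 with Smad2 (adjusted permutation p = 0.196) and 0.599 for Tgfbr1 with Smad7 (adjusted permutation p = 0.208). With the correction the SD of log2 Smad7 went from 0.242 to 0.166 and that of Tgfb1 from 0.318 to 0.295, while those of Tgif1 (0.248 to 0.271), Tgfbr2 (0.110 to 0.138) and Skil (0.129 to 0.144) became larger.

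The sums of markers of other cells and of handling were set beside Tgfb1 as a description, without a test. On the log2 scale, r of the marker sums with Tgfb1 was 0.807 for oligodendrocytes, 0.702 for immediate-early genes and -0.554 for neutrophils. For the other marker sets r ran from -0.407 to 0.599. Values of this size were not rare. Of all genes tested, 5.85% were at least as closely related to Tgfb1 as Smad3 was (r = 0.768). For Tgif1 (r = 0.580) that share was 22.2%. The 4 oligodendrocyte markers summed to 7.563 RPKM in library 6 and to 10.19 in library 12, the lowest and the highest of the 10 libraries. The 9 immediate-early genes were lowest in library 6 (9512 RPKM) and at 14180 in library 12, below only library 8 (15410). The neutrophil markers summed to 2272 RPKM in library 6 and to 375.3 in library 12. The part of these cells and of handling in the relations among the members was not tested.

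**Figure D4:**
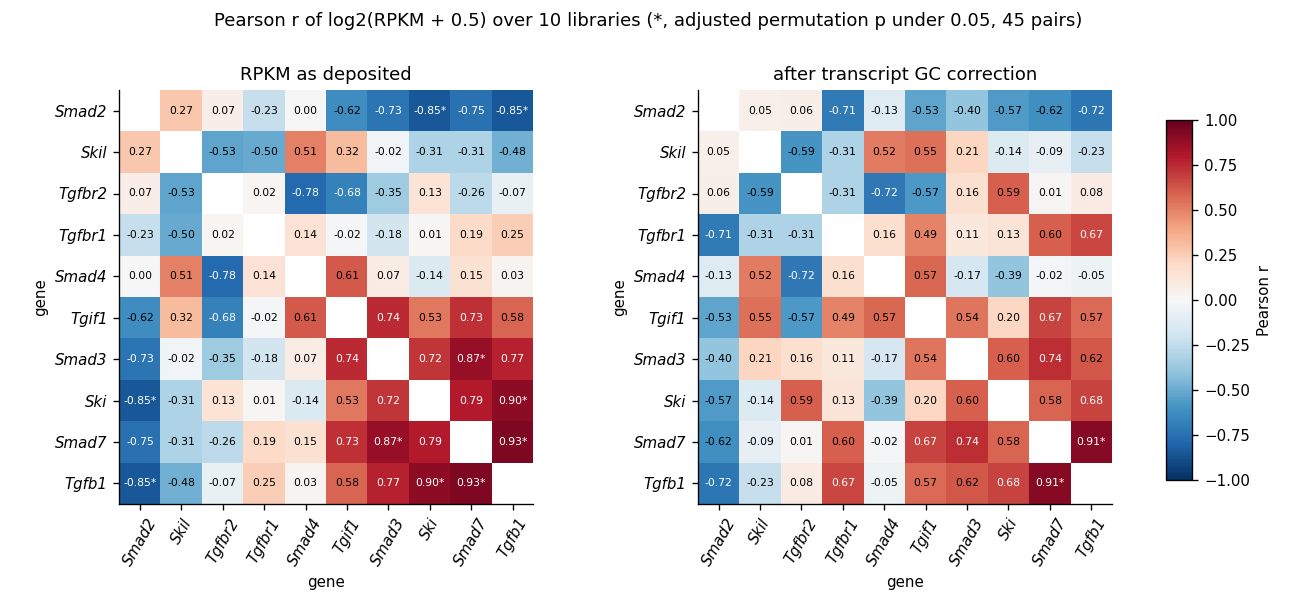
Pearson r between the 10 pathway genes over the 10 libraries, from the deposited RPKM (left) and after removal of each library's transcript GC trend (right); asterisks mark an adjusted permutation p under 0.05. The 5 marked pairs on the left become 1 on the right, Tgfb1 with Smad7.

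**Figure D5:**
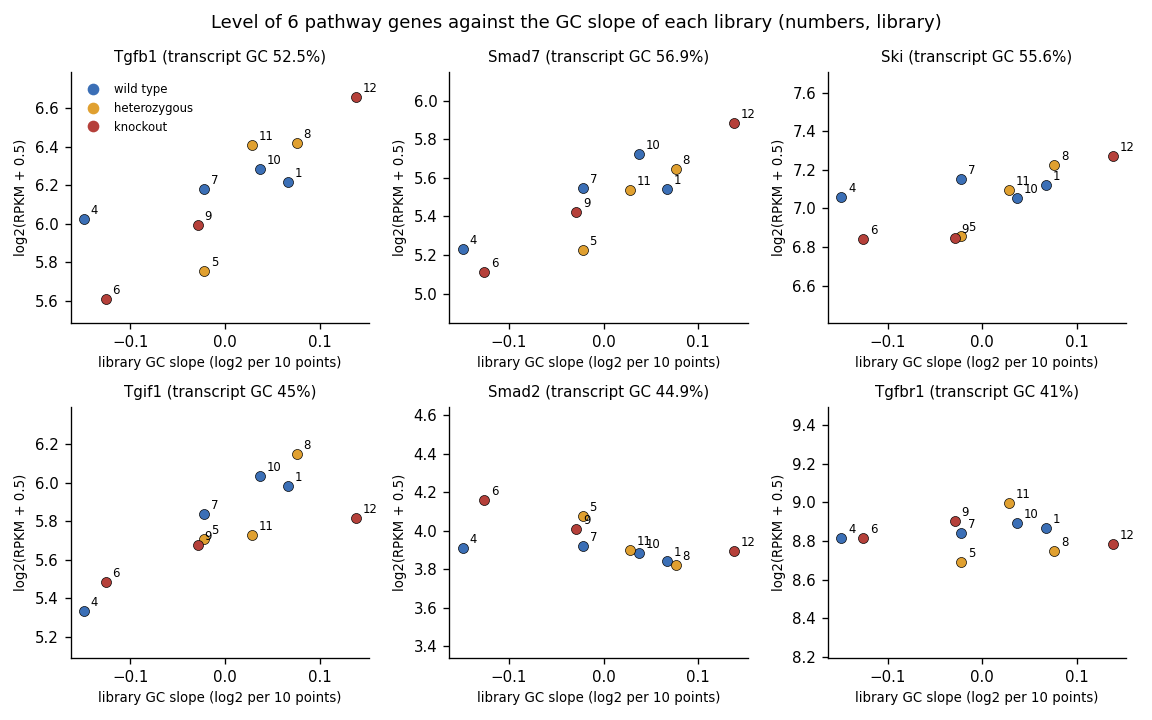
log2(RPKM + 0.5) of 6 pathway genes against the GC slope of each library, coloured by genotype and numbered by library; every panel spans the same height on the log2 scale. Smad7 and Tgfb1 are lowest in knockout library 6 and highest in knockout library 12, whereas Tgfbr1 is highest in heterozygous library 11 and lowest in heterozygous library 5.

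The genes most like single members over the 10 libraries were sought among the other members and the pathway list, 62 candidates in all, as a description. For Tgfb1 it was Smad7, as above. For Tgfbr1 it was Acvr1 (r = 0.764, and 0.713 after GC correction), and 0.448% of all genes tested were at least as like Tgfbr1. For Tgif1 it was Furin, the protease that cleaves the TGF-beta precursor (r = 0.917, and 0.949 after GC correction), and 0.22% of all genes tested were at least as like Tgif1. All 10 libraries share these genes' source and preparation, and the highest of 62 values is high by its choice.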

How the data were processed

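The deposited tables hold RPKM on a linear scale, computed by the authors, with 1 value per gene and library. The submitters' processing notes name STAR, HTSeq, edgeR, limma and the build mm10; for versions and annotation, nothing is given in the sources used here. Of 24060 names listed, 27 had been turned into dates and were not used. In all 19983 genes above 0, the 10 values were whole multiples of 1 read (within 0.002 reads or a relative 3e-07), which gave the recovered reads.

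Analysis used log2(RPKM + 0.5) of the 13621 genes that reached 0.5 RPKM in 3 or more libraries. limma 3.58.1 (R 4.3.3, trended variance, two-sided) was fitted to all 10 libraries with genotype and sex as terms. Benjamini-Hochberg adjustment ran over all genes, and a gene was called at an adjusted p under 0.05. On the log2(RPKM + 0.5) scale, differences of low genes are understated. Pairs of members were tested with 100000 permutations, adjusted over 45 pairs. The members and lists were chosen with earlier results of these data known. The results of 2 list genes are not reported here, and counts over the lists leave them out. Named beside the 10 members and Trem2 were the 2 most abundant genes of each role, those with an unadjusted p under 0.05 between genotypes, and for 3 members the gene most like it. Coordinates are from GENCODE M21 (GRCm38) and upstream sequences from RefSeq (GRCm38.p6), with windows for 6 of 10 members. Member windows on chromosome 18, which holds Smad2, Smad4 and Smad7, were not used, and none was found for Skil. Alternatives covered pseudocount, filter, scaling, sex and depth terms, sample weights, limma-voom on recovered reads, single libraries left out and, chosen after seeing the data, a transcript GC correction (13017 of 13621 genes, 95.6%, had a GC value) and the 6 shallower libraries alone.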

Additional observations from a re-analysis of the deposited data

How the results depend on the processing

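The number of members called, and of other pathway genes called, was 0 in every genotype comparison, in the slope and between the sexes under each alternative run. For the members' log2 differences, 220 values from 22 alternatives were computed per genotype comparison. The sign changed in 13 of them for knockout against wild type, 25 for heterozygous against wild type and 22 for knockout against heterozygous, and 213, 216 and 214 lay within 1 SE of the reported value. An unadjusted p under 0.05 appeared 4 times: for Ski in knockout against wild type with sample quality weights (log2 -0.26) and without knockout library 12 (log2 -0.25), for Tgif1 in the same comparison without wild-type library 4 (log2 -0.35), and for Tgif1 in knockout against heterozygous with only those genotypes fitted (log2 -0.32). The number of related pairs, 5 as reported, ranged from 0 to 8 when single libraries were left out, and was 1 with the transcript GC correction, an alternative chosen after seeing the data. No paired analysis was run, because the labels name no litter, batch or day that would pair libraries across genotypes. With a depth term the log2 difference of Tgfb1 in knockout against wild type was -0.264 (limma adjusted p = 0.93), beside -0.128 as reported. With 3 or 4 libraries a genotype, the intervals limit what could be seen; the lowest read number behind a member in any library was 1247, for Smad4, so the spread between libraries and not counting error sets the precision.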

Other observations

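The spread of some members was unequal between genotypes, which is given as values only and was not tested or set beside all genes. These members were named after their values were seen. For Tgfb1 the SD was 5.317 RPKM over the 4 wild-type libraries, 18.06 over the 3 heterozygous and 26.96 over the 3 knockout libraries. For Ski, the corepressor related in level to Tgfb1, it was 4.632, 16.96 and 22.70 RPKM. Tgfbr2 went the other way, at 16.55 RPKM in wild type, 4.484 in heterozygous and 3.413 in knockout. In wild type the sexes split Tgfbr2, with male libraries at 158.3 and 147.7 RPKM and female libraries at 124.9 and 125.7. With so few libraries such a split can arise easily, and it was not tested. In the other genotypes, male libraries were at 130.0, 133.1 and 138.6 RPKM and female libraries at 125.6, 134.5 and 139.4, which overlap.

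Between the sexes, 4 of the 53 other pathway genes had an unadjusted p under 0.05, beside 5.34% of all genes, and none was called by limma. They were Smad1 (log2 0.33, male against female), Itgb8, an integrin subunit that activates latent TGF-beta (log2 -0.63), Acvr2b, an activin receptor (log2 -0.39), and Ppm1a, a phosphatase of receptor Smads (log2 -0.27). Itgb8 was low in these libraries, at 1.060 RPKM on average. These genes were named after their values were seen.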
